A study of Mus musculus with 2 samples.

Results

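The leukocyte integrin genes examined here were 10 genes chosen by name, Itgae, Itgb7, Itga4, Itgb1, Itgal, Itgb2, Itga6, Itgb3, Itga2 and Itga1, and all 10 were found among 46398 gene symbols. They were measured by poly(A) RNA sequencing in effector regulatory T cells of Nrn1-/- mice, with 1 library, and of Nrn1+/- mice, with 1 library. Both genotypes were on a C57BL/6 background and carried the Foxp3DTRgfp allele, which marks Foxp3-expressing cells with green fluorescent protein, and both cell populations were sorted as CD4+, CD25+, CD62L-low, CD44-high and GFP-positive. The control library is titled wild type, but its genotype label reads Nrn1+/-, so the contrast is null against heterozygous. The sources used here do not give age, sex, the number of mice behind each library or which part of Nrn1 the null allele lacks. Nrn1 encodes neuritin, a small cell-surface protein first described in neurons.

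Integrins are adhesion receptors made of 1 α chain and 1 β chain, and a chain reaches the cell surface only as part of such a pair. On T cells they are held inactive until signals inside the cell, through the small GTPase RAP1, talin and kindlin, switch them to a form that binds ligand. Integrins then let T cells stop on vessel walls, enter tissues and stay there. In regulatory T cells, αE (CD103) is known as a mark of effector and tissue-resident subsets, α4β7 directs cells to the gut, and αLβ2 (LFA-1) holds the contact with antigen-presenting cells.

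Levels are in FPKM, which divides the fragments of a gene by transcript length in kilobases and by sequencing depth, so that genes can be compared per length. Ratios are log2((Nrn1-/- + 1)/(Nrn1+/- + 1)), where 1 FPKM is added to each value, and a gene was called higher or lower when this ratio passed 1.5-fold. The 1.5-fold threshold, and the words called, passed and beyond, refer to this ratio with its added 1 FPKM, while a fold given beside the values of a gene is the plain FPKM ratio. With 1 library per genotype there is no measure of the spread between mice, so no p-value is given and each difference describes these libraries. The intervals quoted are 95% exact binomial intervals and cover counting error only. They rest on estimated fragment numbers, which assume the longest annotated coding transcript of each gene and would be smaller for shorter isoforms.

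The targeted gene Nrn1 stood at 4.62 FPKM in Nrn1-/- cells and 66.5 FPKM in Nrn1+/- cells. All 10 markers of the sorted cell type were present, at 15.3 to 564 FPKM in Nrn1-/- cells and 14.3 to 608 FPKM in Nrn1+/- cells. Of these markers 8 were lower in Nrn1-/- cells, with a median log2 ratio of -0.23 over the 10 and none called. Among them Foxp3, the factor that defines the lineage, was at 195 FPKM in Nrn1-/- cells and 257 FPKM in Nrn1+/- cells. Low values stepped by 0.02495 FPKM on 1 kb per fragment for the Nrn1-/- library and by 0.019 for the Nrn1+/- library, a depth 1.31 times as large for the Nrn1+/- library if each was divided by its own total. The 10 genes of a cell division list summed to 769 FPKM in Nrn1-/- cells and 293 FPKM in Nrn1+/- cells, with all 10 called higher. Beside these 10 genes and the 10 markers, 7.5% of all genes averaging 1 FPKM or more were called higher and 5.27% lower. The part of the cell division difference in the integrin values was not tested.

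Of the 10 integrin genes, 8 reached a mean of 1 FPKM. Of these 8, 1 was called lower in the Nrn1-/- library, Itga6, and none was called higher. Over all 12344 genes tested, 5.27% were called lower and 7.5% higher. Over the 10695 protein-coding genes the shares were 3.69% lower and 7.01% higher. The median log2 ratio of the 8 integrin genes was -0.21, against 0.02 over all genes tested, with 5 of the 8 below 0 (62.5%), where 47.7% of all genes tested were. Among protein-coding genes the median rose with level. It was -0.01 at 5 to 20 FPKM, 0.08 at 20 to 100 FPKM and 0.20 from 100 FPKM. In that last band the log2 ratio was 0.22 for Itgb2, 0.04 for Itgal and -0.34 for Itgb7. The median of the 10 markers of the sorted cell type, -0.23, was close to that of the integrin genes. The 5 lower genes were α6, αE, α4, β7 and β3, and the 3 higher ones β1, β2 and αL. These directions depended on scaling in part: with each library rescaled to a sum of 1000000, which shifted the median log2 ratio of all genes by -0.27, all 8 were below 0 and 4 were called lower, with 426 genes (3.27%) called higher and 2292 (17.6%) lower, against 926 and 651 as deposited. With equal sums over protein-coding genes, a shift of -0.11, αL also turned below 0, 3 integrin genes were called lower, and the calls over all genes were 607 higher (4.91%) and 1092 lower (8.84%). Before rescaling, the values of all genes added up to 790935 (Nrn1-/-) and 645876 (Nrn1+/-). Protein-coding genes accounted for 647544 (Nrn1-/-) and 593035 (Nrn1+/-) of these totals. Most of the gap between the totals therefore lay outside protein-coding genes, and rescaling to 1000000 carries it into the ratios of the integrin genes. In bulk RNA, fewer cells of a kind and less RNA per cell cannot be told apart.

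**Figure D1:**
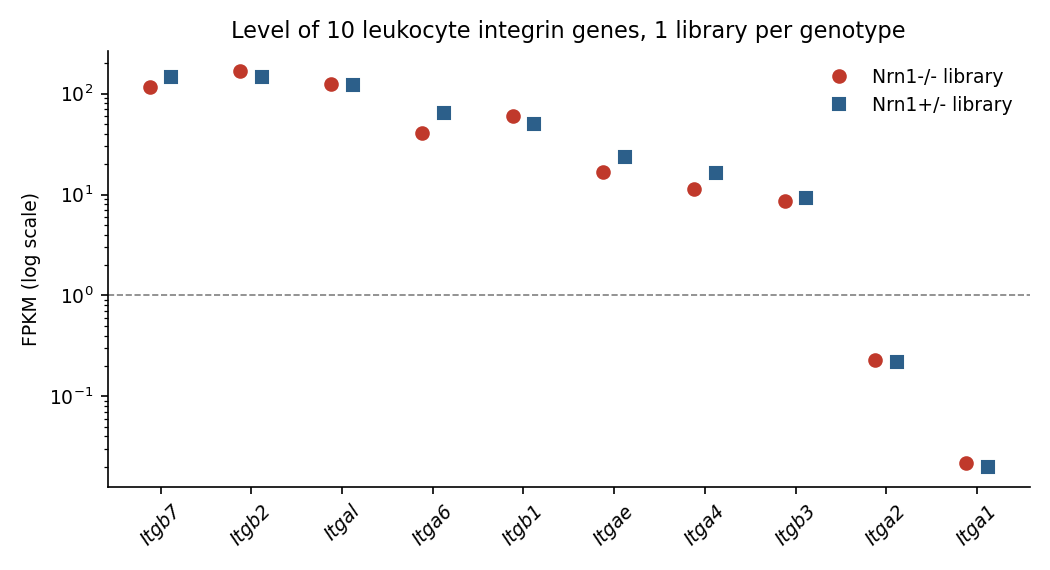
FPKM on a log axis for each of the 10 integrin genes, with the Nrn1-/- library as red circles and the Nrn1+/- library as blue squares, 1 library each, so there are no error bars. The dashed line marks 1 FPKM. Itga2 and Itga1 lie below it in both libraries, and Itga6 shows the widest gap among the others.

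The order of the levels differed at the top. In the Nrn1-/- library it ran Itgb2, Itgal, Itgb7, Itgb1, Itga6, Itgae, Itga4, Itgb3, Itga2 and Itga1, and in the Nrn1+/- library it ran Itgb7, Itgb2, Itgal, Itga6, Itgb1 and then as before. Itgb7 thus ranked behind Itgb2 and Itgal in Nrn1-/- cells and ahead of both in Nrn1+/- cells, and Itga6 and Itgb1 changed places. In the Nrn1+/- library Itgb7 at 147 FPKM and Itgb2 at 145 FPKM were nearly level, and with single libraries no neighbours in either order can be separated by their spread. Summed over the 4 β chains the level was 353 FPKM in Nrn1-/- cells and 351 FPKM in Nrn1+/- cells. Summed over the 6 α chains it was 194 FPKM in Nrn1-/- cells and 226 FPKM in Nrn1+/- cells.

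Itga6 encodes α6 (CD49f), which pairs with β1 or β4 to form laminin receptors. The gene (ENSMUSG00000027111.14, GRCm38 chromosome 2, 71745616 to 71858416, plus strand, with 8 transcripts in GENCODE M21) stood at 40.8 FPKM in Nrn1-/- cells and 64.2 FPKM in Nrn1+/- cells. It was 1.58-fold lower (interval 1.53 to 1.62, log2 ratio -0.64), and 4.03% of the genes tested had a lower log2 ratio. The 4 other annotated genes within its bounds, Gm13663, Gm17250, Gm13662 and Gm13739, were listed at 0 in both libraries. Its log2 ratio lay between -0.93 and -0.64 under the 7 other scalings, pseudocounts and filters tried, so it passed 1.5-fold in each, though not 2-fold. A change of filter leaves the ratio of a gene as it is, so only the scalings and the pseudocount could have altered it.

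Itgb1, the β1 chain (CD29) shared by α1, α2, α4, α6 and other partners, differed in the other direction. This gene (ENSMUSG00000025809.14, chromosome 8, 128685654 to 128733200, plus strand) was at 59.5 FPKM in Nrn1-/- cells and 50.4 FPKM in Nrn1+/- cells, 1.18-fold higher (interval 1.15 to 1.22, log2 ratio 0.23), which is within 1.5-fold and turned to -0.05 at a sum of 1000000. A ratio of 2 chains within a library carries no scaling between libraries. Itga6 was present at 0.686 times the level of Itgb1 in Nrn1-/- cells and at 1.27 times in Nrn1+/- cells. Thus Itga6 had the lower of the 2 transcript levels in the Nrn1-/- library and the higher one in the Nrn1+/- library, a log2 change of the ratio of -0.89. These are RNA levels from 1 library each, and protein was not measured. Which transcript is ahead also depends on the transcript lengths used for FPKM. Itga4 was present at 0.191 times the level of Itgb1 in Nrn1-/- cells and at 0.321 times in Nrn1+/- cells, a log2 change of -0.75. Together the member α partners of β1, which are Itga1, Itga2, Itga4 and Itga6, summed to 52.4 FPKM in Nrn1-/- cells and 80.6 FPKM in Nrn1+/- cells, 1.54-fold lower. Most of that sum was Itga6.

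**Figure D2:**
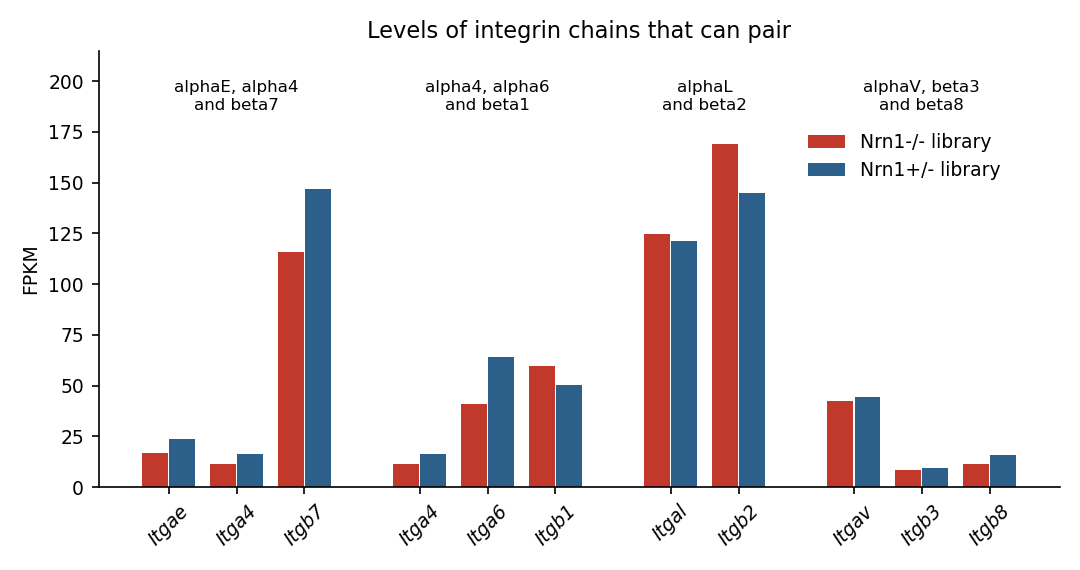
FPKM of integrin chains grouped by the pairs they can form, with red bars for the Nrn1-/- library on the left of each pair of bars and blue bars for the Nrn1+/- library, 1 library each. Itga4 is drawn under both of its β partners. Itga6 lies below Itgb1 in the Nrn1-/- library (40.8 and 59.5 FPKM) and above it in the Nrn1+/- library (64.2 and 50.4 FPKM).

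The transcripts of the mucosal integrin chains αE, α4 and β7 were all lower in the Nrn1-/- library, each by less than 1.5-fold. αE pairs with β7 alone, and αEβ7 binds E-cadherin on epithelial cells. Itgae (ENSMUSG00000005947.10, chromosome 11, 73090583 to 73147446, plus strand) stood at 16.8 FPKM in Nrn1-/- cells and 23.8 FPKM in Nrn1+/- cells, 1.41-fold lower (interval 1.35 to 1.49, log2 ratio -0.48). A kinase gene of mitosis, Haspin, lies within Itgae on the other strand and ran the opposite way, at 12.1 FPKM in Nrn1-/- cells and 7.87 FPKM in Nrn1+/- cells. The sources used here do not say whether strand was used in counting, and fragments in the stretch the genes share cannot be told apart.

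α4 (CD49d) joins β7 to bind the gut vessel ligand MAdCAM-1, or β1 to bind VCAM-1 and fibronectin. Itga4 (ENSMUSG00000027009.17, chromosome 2, 79255426 to 79333123, plus strand) was at 11.4 FPKM in Nrn1-/- cells and 16.2 FPKM in Nrn1+/- cells, 1.42-fold lower (interval 1.37 to 1.48, log2 ratio -0.47). Its end overlaps the end of Cerkl, a gene on the other strand, which stood at 8.96 FPKM in Nrn1-/- cells and 13.4 FPKM in Nrn1+/- cells. The deposited files list the same locus for both genes, and fragments in the stretch they share cannot be told apart without strand.

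Itgb7 (ENSMUSG00000001281.8, chromosome 15, 102215995 to 102231944, minus strand), the β7 chain that both α chains use, had 116 FPKM in Nrn1-/- cells and 147 FPKM in Nrn1+/- cells. It was 1.27-fold lower (interval 1.24 to 1.30, log2 ratio -0.34). β7 transcripts were far in excess of those of its α partners in both libraries. Itgae and Itga4 together reached 0.243 times the level of Itgb7 in Nrn1-/- cells and 0.272 times in Nrn1+/- cells. The relation of the α chains to each other was nearly equal in the libraries, with Itgae at 1.48 times Itga4 in Nrn1-/- cells and 1.47 times in Nrn1+/- cells. The level of Itgb7 relative to Itgb1, which compete for α4, was 1.95 in Nrn1-/- cells and 2.91 in Nrn1+/- cells, a log2 change of -0.58. At equal protein-coding sums Itgae and Itga4 passed 1.5-fold lower, with log2 ratios of -0.60 and -0.59, and at a sum of 1000000 so did Itgb7 (-0.63).

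The promoters of α4 and of its β partners β7 and β1 are shown, since Itga4 and Itgb7 were lower and Itgb1 higher in Nrn1-/- cells as deposited. Each is the 250 bases before the RefSeq transcription start on GRCm38.p6, read 5′ to 3′ on the gene's strand, and capitals mark CACCC or its reverse complement GGGTG, the core that Krüppel-like factors bind.
Itga4, chr2:79255176-79255425, plus strand: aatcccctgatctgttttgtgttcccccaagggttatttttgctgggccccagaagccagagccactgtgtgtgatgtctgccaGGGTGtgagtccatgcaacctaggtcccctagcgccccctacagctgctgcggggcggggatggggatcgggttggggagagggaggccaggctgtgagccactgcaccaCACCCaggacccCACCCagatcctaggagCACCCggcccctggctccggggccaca
Itgb7, chr15:102231936-102232185, minus strand: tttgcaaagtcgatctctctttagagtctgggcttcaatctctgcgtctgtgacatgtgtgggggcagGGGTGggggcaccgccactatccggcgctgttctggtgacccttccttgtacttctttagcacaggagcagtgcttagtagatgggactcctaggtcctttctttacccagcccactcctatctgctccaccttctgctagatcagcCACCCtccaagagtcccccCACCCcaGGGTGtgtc
Itgb1, chr8:128685404-128685653, plus strand: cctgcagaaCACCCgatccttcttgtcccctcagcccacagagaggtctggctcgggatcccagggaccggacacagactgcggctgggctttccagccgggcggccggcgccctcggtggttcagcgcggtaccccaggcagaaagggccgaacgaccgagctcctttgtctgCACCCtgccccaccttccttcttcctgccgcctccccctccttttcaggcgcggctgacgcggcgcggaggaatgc
The CACCC core occurred 4 times before Itga4, 4 times before Itgb7 and 2 times before Itgb1, counting both strands. Of 32851 promoters of the same length 52% held at least 1, and 6.92% held 3 or more. The core TGTGG of RUNX factors, also counted on both strands as CCACA, occurred 2 times before Itga4, 1 time before Itgb7 and 1 time before Itgb1, and 49.3% of all promoters held it. Before Itga4, 1 CCACA overlaps a CACCC, and before Itgb7 and Itgb1 there is no such overlap. A match describes these letters and is not evidence that a factor binds there. Promoters of 5 members were available, the other 2 being those of Itga1, with 2 CACCC cores, and Itga2, with 1. The promoter of Itga6, the only member called, was not among them. A relation of the number of cores to the direction of a gene was not tested.

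LFA-1, the pair of αL (CD11a) and β2 (CD18), binds the ICAM proteins of other cells, and its chains were among the most abundant integrin transcripts. Itgal (ENSMUSG00000030830.17, chromosome 7, 127296260 to 127335138, plus strand) stood at 125 FPKM in Nrn1-/- cells and 121 FPKM in Nrn1+/- cells, a plain ratio of 1.03 (interval 1.01 to 1.05). Itgb2 (ENSMUSG00000000290.12, chromosome 10, 77530252 to 77565708, plus strand) stood at 169 FPKM in Nrn1-/- cells and 145 FPKM in Nrn1+/- cells, 1.17-fold higher (interval 1.15 to 1.19, log2 ratio 0.22). Both ratios turned negative at a sum of 1000000, to -0.25 for Itgal and -0.07 for Itgb2. Itgal was at 0.738 times the level of Itgb2 in Nrn1-/- cells and 0.838 times in Nrn1+/- cells. The other α partners of β2, Itgam, Itgax and Itgad, which are typical of myeloid cells, were looked up after the values were seen and summed to 0.174 FPKM in Nrn1-/- cells and 0.107 FPKM in Nrn1+/- cells.

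β3 pairs with αV to bind vitronectin and osteopontin, and with αIIb on platelets. Itgb3 (ENSMUSG00000020689.4, chromosome 11, 104608000 to 104670476, plus strand) was at 8.60 FPKM in Nrn1-/- cells and 9.22 FPKM in Nrn1+/- cells, 1.07-fold lower (interval 1.01 to 1.14). Its partner Itgav stood at 42.2 FPKM in Nrn1-/- cells and 44.2 FPKM in Nrn1+/- cells, which was 4.91 times the level of Itgb3 in Nrn1-/- cells and 4.79 times in Nrn1+/- cells. The 8 platelet markers summed to 1.49 FPKM in Nrn1-/- cells and 1.26 FPKM in Nrn1+/- cells. Of these, 5 were higher and 1 lower in the Nrn1-/- library, and 2 were at 0 in both. The lower one, Gp1ba, was the highest in level (0.781 FPKM in Nrn1-/- cells and 1.21 FPKM in Nrn1+/- cells). None of the 8 markers had a mean of 1 FPKM, with Gp1ba closest at 0.994 FPKM.

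The collagen receptors α1 and α2, which pair with β1 and mark subsets of tissue T cells and NK cells, had the lowest levels. Itga2 (ENSMUSG00000015533.8, chromosome 13, 114833081 to 114932100, minus strand) was at 0.231 FPKM or about 64 fragments in Nrn1-/- cells, and at 0.219 FPKM or about 79 fragments in Nrn1+/- cells. Itga1 (ENSMUSG00000042284.9, chromosome 13, 114953096 to 115101964, minus strand) was at 0.0217 FPKM or about 9 fragments in Nrn1-/- cells, and at 0.0198 FPKM or about 11 fragments in Nrn1+/- cells. The interval of the Nrn1-/- to Nrn1+/- ratio ran from 0.747 to 1.49 for Itga2 and from 0.401 to 2.90 for Itga1, so a difference of the size seen for Itga6 was not detectable for Itga1 at this depth. Pelo, a gene on the same strand within Itga1, was at 18.9 FPKM in Nrn1-/- cells and 12.8 FPKM in Nrn1+/- cells, and fragments in the stretch they share may be counted to either gene.

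**Figure D3:**
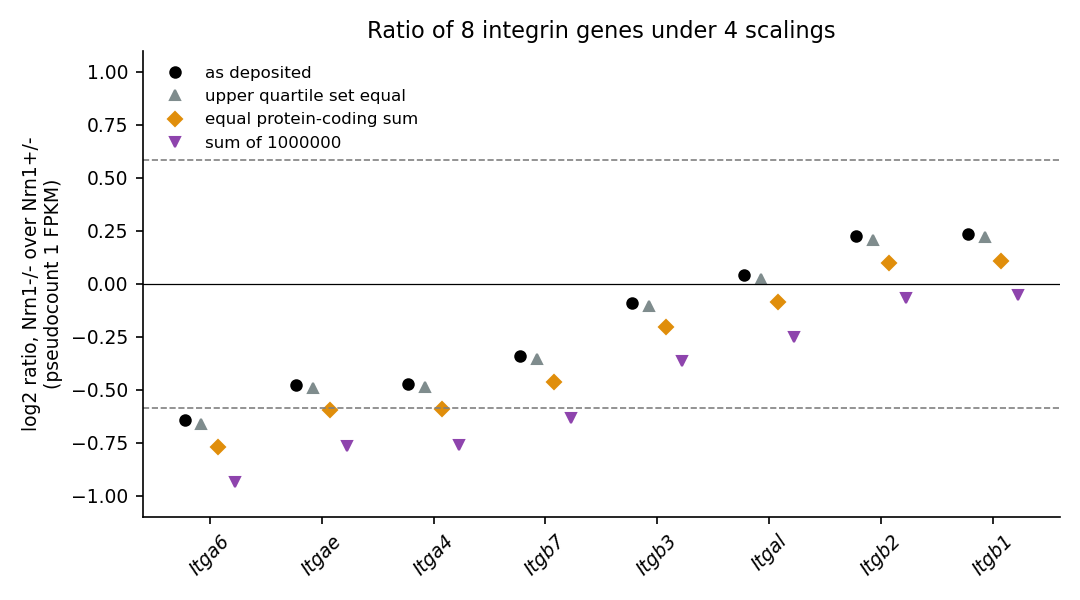
Log2 ratio of the Nrn1-/- over the Nrn1+/- library for the 8 integrin genes averaging 1 FPKM or more, with 1 point per scaling and dashed lines at 1.5-fold. Itga6 is below the lower line under each scaling drawn. Itgb1, Itgb2 and Itgal cross 0 when each library is rescaled to a sum of 1000000, and Itgal also does so at equal protein-coding sums.

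Most of the remaining integrin family was at low levels in these cells. Of the 17 other integrin subunit genes, 12 had a mean below 1 FPKM. Of the 5 others 1 was called lower and none higher (median log2 ratio -0.06). Over all genes tested the shares called were 5.27% lower and 7.5% higher. Itgb8, whose product with αV releases active TGF-β from its latent form, stood at 11.2 FPKM in Nrn1-/- cells and 15.8 FPKM in Nrn1+/- cells, a log2 ratio of -0.46. Itga5, the fibronectin receptor chain, was at 3.56 FPKM in Nrn1-/- cells and 3.16 FPKM in Nrn1+/- cells, and Itga3, a laminin receptor chain, at 3.33 FPKM in Nrn1-/- cells and 3.04 FPKM in Nrn1+/- cells. The gene called lower was Itga2b, the αIIb chain known from platelets, with 1.18 FPKM in Nrn1-/- cells and 2.34 FPKM in Nrn1+/- cells (log2 ratio -0.62). With a mean of 1.76 FPKM, Itga2b does not pass a filter of 5 FPKM.

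Genes of the machinery that switches integrins on from inside the cell had 1 member called lower. Of 25 genes on this list 21 were tested, 13 had a log2 ratio below 0 (61.9%, against 47.7% of all genes tested), 1 was called lower and none higher (median -0.17). The gene called lower was Fyb, which encodes the adaptor ADAP that links the T cell receptor to integrin activation, at 114 FPKM in Nrn1-/- cells and 187 FPKM in Nrn1+/- cells (log2 ratio -0.71, 1.65-fold lower). Over all genes tested 5.27% were called lower and 7.5% higher. Rasgrp2, an activator of RAP1, lay just inside the threshold, at 12.6 FPKM in Nrn1-/- cells and 19.0 FPKM in Nrn1+/- cells (log2 ratio -0.56), and passed it with a pseudocount of 0.1 FPKM. Cytip, which binds the integrin regulator cytohesin 1, had 242 FPKM in Nrn1-/- cells and 330 FPKM in Nrn1+/- cells (log2 ratio -0.44). The GTPase gene Rap1b was at 169 FPKM in Nrn1-/- cells and 168 FPKM in Nrn1+/- cells. At a sum of 1000000, 8 of these genes were called lower, where 17.6% of all genes tested were.

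The list of signalling and actin-linking genes downstream of bound integrins had 24 of 29 tested, with 12 above and 12 below 0. None was called, beside 7.5% higher and 5.27% lower over all genes tested, and the list's median log2 ratio was 0.01. Tgfb1i1, a paxillin relative, was at 0.727 FPKM in Nrn1-/- cells and 1.43 FPKM in Nrn1+/- cells, 1.97-fold lower, but its log2 ratio of -0.49 with the added 1 FPKM kept it inside the threshold, which it passed with a pseudocount of 0.1 FPKM. Its most abundant genes were Fyn, a Src-family kinase (179 FPKM in Nrn1-/- cells and 204 FPKM in Nrn1+/- cells), Vasp, an actin regulator (169 FPKM in Nrn1-/- cells and 162 FPKM in Nrn1+/- cells), and Actn4, an α-actinin (154 FPKM in Nrn1-/- cells and 115 FPKM in Nrn1+/- cells, log2 ratio 0.42).

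Among 20 ligand genes 7 were tested, of which 2 were called higher and none lower, beside 7.5% higher and 5.27% lower over all genes tested. Vcam1, the ligand of α4β1, was at 2.25 FPKM in Nrn1-/- cells and 0.473 FPKM in Nrn1+/- cells (log2 ratio 1.14, 4.76-fold, interval 3.71 to 6.16). Vcam1 is also a gene of endothelial and myeloid cells, and the part of such cells in its level was not tested. Spp1, which encodes osteopontin, a ligand of αVβ3 and α4β1, was at 48.8 FPKM in Nrn1-/- cells and 25.7 FPKM in Nrn1+/- cells (log2 ratio 0.90, 1.90-fold). Both calls held under each scaling tried, though Vcam1, with a mean of 1.36 FPKM, does not pass a filter of 5 FPKM. The LFA-1 ligands Icam1 (53.0 FPKM in Nrn1-/- cells and 49.4 FPKM in Nrn1+/- cells) and Icam2 (41.8 FPKM in Nrn1-/- cells and 39.3 FPKM in Nrn1+/- cells) had log2 ratios of 0.10 and 0.09, and Tgfb1, whose latent form is bound by αV integrins, stood at 157 FPKM in Nrn1-/- cells and 126 FPKM in Nrn1+/- cells. Cdh1, the E-cadherin ligand of αEβ7, was at 0.0419 FPKM in Nrn1-/- cells and 0.0651 FPKM in Nrn1+/- cells. Madcam1, the ligand of α4β7, was at 0.288 FPKM in Nrn1-/- cells and 0.253 FPKM in Nrn1+/- cells.

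**Figure D4:**
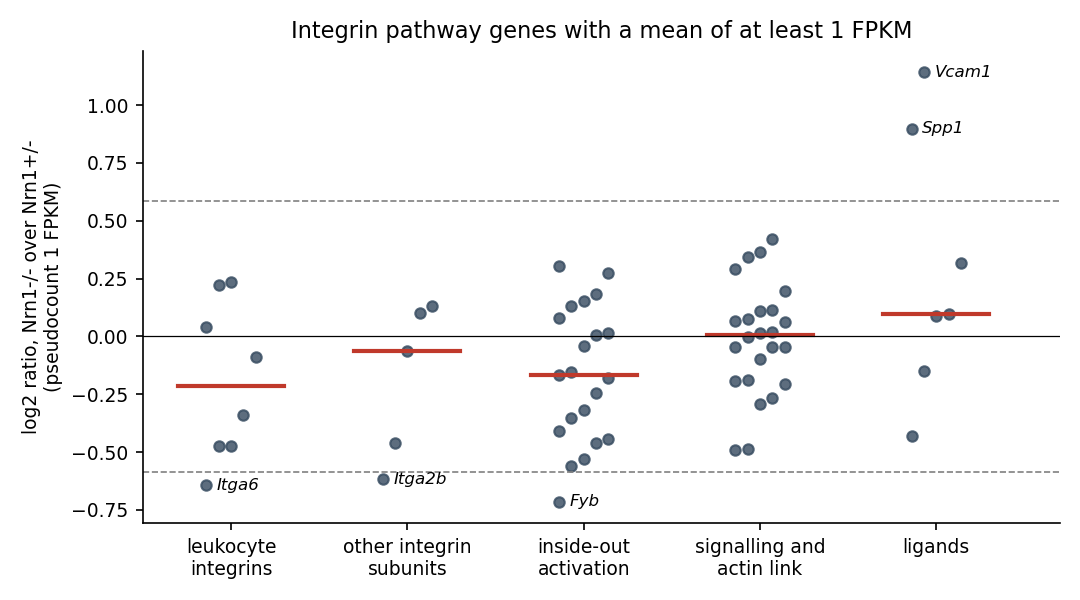
Log2 ratio of the Nrn1-/- over the Nrn1+/- library for each tested gene of 5 lists, 1 point per gene, with the list's median as a red bar and dashed lines at 1.5-fold. Only the 5 named points lie beyond the dashed lines, Itga6, Itga2b and Fyb below and Vcam1 and Spp1 above.

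Most markers of other cells that carry integrins were low, and their part in the integrin values was not tested. The 10 B cell markers summed to 9.92 FPKM in Nrn1-/- cells and 7.17 FPKM in Nrn1+/- cells, and 9 of the 10 were higher in the Nrn1-/- library, with Cd79b (5.14 FPKM in Nrn1-/- cells and 4.85 FPKM in Nrn1+/- cells) the only one at a mean of 1 FPKM. The 13 myeloid markers summed to 9.36 FPKM in Nrn1-/- cells and 11.4 FPKM in Nrn1+/- cells, with 4 at 0 in both and Cd68 the highest (5.56 FPKM in Nrn1-/- cells and 7.09 FPKM in Nrn1+/- cells). The 8 NK and CD8 T cell markers summed to 9.02 FPKM in Nrn1-/- cells and 10.1 FPKM in Nrn1+/- cells. The 9 endothelial, stromal and epithelial markers summed to 37.2 FPKM in Nrn1-/- cells and 51.2 FPKM in Nrn1+/- cells. Nearly all of that was Pecam1 (24.6 FPKM in Nrn1-/- cells and 34.6 FPKM in Nrn1+/- cells) and Epcam (12.2 FPKM in Nrn1-/- cells and 16.3 FPKM in Nrn1+/- cells). The defining endothelial marker Cdh5 was at 0.0199 FPKM in Nrn1-/- cells and 0.00505 FPKM in Nrn1+/- cells.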

How the data were processed

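FPKM per gene was computed by the authors and deposited as 1 file per library. The unit was inferred from the values and from the mention of Cuffnorm. Per the submitters' processing notes, TopHat, Cuffdiff, FastQC and the builds mm10 and GRCm38 also played a part, without versions or roles. The sources used here do not give the annotation, pooling or how libraries were scaled to each other. Each file held 46511 rows, and 82 symbols with several rows were summed. The filter kept the 12344 genes averaging 1 FPKM or more. Positions came from GENCODE M21 on GRCm38 by gene identifier, and all 10 integrin genes matched.

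Fragment numbers were estimated from the steps of low values in single-transcript genes of at least 1000 bases. Low values of 1625 genes (Nrn1-/-) and 1650 genes (Nrn1+/-) were used, and 96.1% and 95.8% of them lay within 0.1 of a whole fragment. Without molecular identifiers fragments can be copies of each other, so intervals cover counting error only. The step and ratio calculations were tested on simulated data. Values are not counts, so no count model was fitted.

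The integrin genes and the lists were chosen with earlier results of these data known. All integrin genes were named, and the cell division list was given by its sum and calls, without naming its genes. From each pathway list the 3 genes with the highest mean and each gene beyond 1.5-fold were named, and Itga3, Rasgrp2, Tgfb1i1, Cdh1, Madcam1, the β2 partners and the overlapping genes were added after their values were seen. The marker lists of other cells were planned as counts, sums and the highest gene, and Epcam and Cdh5 were named in addition. Alternatives were 4 scalings, a pseudocount of 0.1 FPKM, no filter, a mean of at least 5 FPKM and a 2-fold threshold. Promoters came from RefSeq on GRCm38.p6. Analyses used Python 3.11.15, pandas 2.3.3, numpy 2.4.6 and scipy 1.17.1.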

Additional observations from a re-analysis of the deposited data

How the results depend on the processing

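The count of 1 integrin gene called lower became 4 at a sum of 1000000, 3 with equal protein-coding sums and 0 at 2-fold. The shares of all genes tested called lower were 17.6%, 8.84% and 1.11% in that order, against 5.27% in the main setting. Rescaling to 1000000 and to equal protein-coding sums shifted the median log2 ratio of all genes tested by -0.27 and -0.11. The count called lower was 1 under the other 5 alternatives, where 1.63% to 7.87% of all genes tested were called lower. No integrin gene was called higher under any alternative, where 1.98% to 9.18% of all genes tested were. The median log2 ratio of -0.215 became -0.497 at a sum of 1000000, -0.335 with equal protein-coding sums and -0.0438 with no filter, where Itga2 and Itga1 entered, and lay between -0.234 and -0.215 under the other 4 that gave one. Of 140 values of single genes and pathway lists under the alternatives, 107 stayed near their main value and 33 moved further. For a gene, near meant within the distance from the middle to an end of its counting interval on the log2 scale. For a list, near meant a count within 1.5-fold. A change of filter cannot alter the ratio of a gene, so those ratios stayed the same by construction and are among the 107. No paired analysis was possible because each genotype has 1 library, and no library could be left out. Depth limits Itga1 and Itga2, which rest on few fragments.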
